A study of Mus musculus with 6 samples.

Results

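The genes described here are 10 serine protease inhibitor genes of serpin clade A: Serpina1a, Serpina1b, Serpina1c, Serpina1d, Serpina1e, Serpina3k, Serpina3m, Serpina3n, Serpina6 and Serpina10. They were chosen by symbol from the 17975 genes of the expression table, and all 10 passed the filter on low counts. RNA was sequenced from whole liver of 3 wild-type mice (WT) and of 3 homozygous NEK7 hepatocyte knock-out mice (Hom, NEK7 fl/fl with Alb-Cre), 1 liver per mouse. The albumin promoter drives Cre in Hom mice, so that Nek7 is deleted in hepatocytes while the other liver cells keep the gene. The labels name no treatment. The study's reporting form gives an age range for its mice as a whole and states that knock-out work included both sexes with matched controls. The paper describes the liver phenotype of Hom mice at an age beyond that range. The age and sex of the single mice sequenced are not given in the sources used here. Nek7, the targeted kinase gene, was at 62.9, 69.1 and 63.7 CPM in WT livers (read counts scaled for library size and composition with TMM factors) and at 14.5, 18.1 and 16.7 CPM in Hom livers, and its log2 fold change was −1.99 with a standard error (SE) of 0.10.

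Serpins are secreted or intracellular proteins that carry an exposed reactive centre loop. A target protease cuts this loop as if it were a substrate, and the serpin then snaps into a new shape that traps the protease. The liver makes most of the clade A serpins of plasma. Human alpha-1-antitrypsin, which protects lung tissue from neutrophil elastase, comes from 1 gene, while the mouse reference genome carries 5 copies, Serpina1a to Serpina1e. Serpina3k, Serpina3m and Serpina3n belong to the mouse group that corresponds to human alpha-1-antichymotrypsin. Serpina6 encodes corticosteroid-binding globulin, a hormone carrier that inhibits no known protease, and Serpina10 encodes the protein Z-dependent protease inhibitor, which acts on coagulation factors Xa and XIa.

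The 5 Serpina1 copies are close to each other in sequence, and the loop is the part that decides which protease is bound. The coding sequences, taken as the longest frame in GENCODE M21 transcripts, were 96.3% to 96.7% identical in pairs among Serpina1b to Serpina1e. Pairs with Serpina1a were 91.5% to 93.3% identical. The Serpina1a frame was longer, at 1311 bases against 1242 in the other copies, and gaps counted as differences. The stretch of 81 bases (27 codons) that starts at the hinge of the loop is shown because it separates the copies, with capitals marking the bases that are not the same in all 5 genes.
Serpina1a: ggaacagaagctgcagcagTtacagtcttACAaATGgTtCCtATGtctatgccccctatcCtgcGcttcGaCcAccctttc
Serpina1b: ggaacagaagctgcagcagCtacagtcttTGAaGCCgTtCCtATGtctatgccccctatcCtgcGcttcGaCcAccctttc
Serpina1c: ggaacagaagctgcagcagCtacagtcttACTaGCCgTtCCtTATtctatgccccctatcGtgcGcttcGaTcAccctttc
Serpina1d: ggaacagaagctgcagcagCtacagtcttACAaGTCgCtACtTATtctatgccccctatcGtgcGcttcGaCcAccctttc
Serpina1e: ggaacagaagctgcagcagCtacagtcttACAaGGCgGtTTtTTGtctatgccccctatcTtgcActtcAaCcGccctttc
Of the 81 bases, 18 varied among the 5 genes, and they fell in 11 of the 27 codons. Codon 15 of the stretch, which encodes the residue beside the bond that a protease cuts, was ATG in Serpina1a and Serpina1b, TAT in Serpina1c and Serpina1d, and TTG in Serpina1e. In this stretch Serpina1e was 85.2% to 87.7% identical to the other copies, and the other copies were 87.7% to 93.8% identical to each other.

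The members lie in 1 cluster on chromosome 12, here given in GRCm38 from GENCODE M21, a build other than the mm9 named in the submitters' processing notes. Serpina10 (103614786 to 103631444), Serpina6 (103646630 to 103657212), Serpina1b (103728156 to 103830373), Serpina1d (103763594 to 103773592), Serpina1a (103853589 to 103863562), Serpina1c (103894926 to 103904887) and Serpina1e (103946931 to 103958975) are on the minus strand. Serpina3k (104338486 to 104346144), Serpina3m (104338486 to 104394257) and Serpina3n (104406729 to 104414329) are on the plus strand. All are annotated as protein-coding. The annotated span of Serpina1b covers Serpina1d, and that of Serpina3m covers Serpina3k, so that reads of these pairs may not be fully separable.

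The same copies were close in sequence before their start sites. The RefSeq promoter table (GRCm38.p6), which runs from 250 bases before to 50 bases after an annotated start, held 6 of the 10 members: the 5 Serpina1 genes and Serpina3n. The table was searched on both strands for GTTAAT, core letters of the site that the hepatocyte factor HNF1 binds, a factor which is known to drive alpha-1-antitrypsin in liver. The letters were found in the windows of all 5 Serpina1 genes and not in that of Serpina3n, against 7.1% of the 32851 promoters of the same length. The 80 bases before the match and the match itself, in capitals, are shown on the minus strand to let the copies be compared.
Serpina1a, chr12:103863635-103863720: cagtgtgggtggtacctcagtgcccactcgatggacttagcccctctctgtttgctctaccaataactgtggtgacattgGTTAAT
Serpina1b, chr12:103738210-103738295: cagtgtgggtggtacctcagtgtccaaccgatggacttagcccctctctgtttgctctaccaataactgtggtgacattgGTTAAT
Serpina1c, chr12:103904972-103905057: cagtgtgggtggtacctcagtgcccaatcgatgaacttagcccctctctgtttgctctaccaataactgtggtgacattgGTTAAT
Serpina1d, chr12:103773644-103773729: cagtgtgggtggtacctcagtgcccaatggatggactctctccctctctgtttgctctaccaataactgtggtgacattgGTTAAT
Serpina1e, chr12:103956970-103957055: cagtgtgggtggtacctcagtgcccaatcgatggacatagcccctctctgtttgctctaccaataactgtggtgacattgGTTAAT
The windows were aligned on the match, so its 6 letters are the same by choice. The match ended 10 to 21 bases before the annotated start in Serpina1a to Serpina1d and 72 bases before it in Serpina1e. Of these 86 bases, 76 were the same in all 5 genes. Serpina1e shared 84 of 86 with Serpina1a, 84 with Serpina1c, 83 with Serpina1b and 80 with Serpina1d. Each pair with Serpina1d shared 79 or 80. The STAT5 element TTCNNNGAA, with N for any base, was in none of the 6 member windows and in 8.3% of all promoters. A match describes the letters only, and no binding was measured.

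Because the copies are alike, a read can fit several of them. Of all stretches of 100 bases in the longest-coding transcript of each gene, 49.9% in Serpina1a and 58.5% in Serpina1c were also found in a transcript of another gene. The share was 29.3% in Serpina1d, 20.6% in Serpina1b and 14.8% in Serpina1e. It was 4.85% in Serpina3k, 6.09% in Serpina3m, 0.204% in Serpina3n and 0% in Serpina6 and Serpina10. The deposited counts are estimates that divide such reads among the copies, so values of single Serpina1 genes are less certain than their sum, and both are given.

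The 6 libraries held between 19349356 and 19730154 counts each. TMM factors were 0.81 to 0.92 in WT and 1.09 to 1.23 in Hom livers. A pair of libraries stood apart from their groups. Hom replicate 1 had no count of the Y-linked genes Ddx3y and Kdm5d, which were at 13.6 CPM or more in the other 5 livers. Of the other Y-linked genes, Eif2s3y was at 0.187 CPM in it and at 37.3 CPM or more elsewhere. Uty was at 6.95 CPM in it and at 26.1 CPM or more elsewhere. In the same liver 12 female-biased liver genes summed to 533 CPM against 27.0 and 24.4 CPM in the other Hom livers. WT replicate 1 also had a high sum of the female-biased genes, 141 CPM against 6.93 and 7.31 CPM in the other WT livers, and it had a sum of 177 CPM over neutrophil markers against 9.49 and 16.2 CPM. Many results that rest on these livers are given with and without them.

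In WT livers the 10 genes took 3.81%, 5.60% and 5.26% of all counts, and in Hom livers 2.40%, 1.94% and 2.14%. With p-values of the edgeR quasi-likelihood test adjusted by Benjamini-Hochberg over 13805 genes and a threshold of 0.05, 7 of the 10 members were lower in Hom and 1 was higher, while 20.1% of all tested genes were lower, 21.5% were higher and 41.7% passed in either direction. The groups did not overlap for these same 8 members, Hom being below WT for 7 (27.0% of all tested genes) and above WT for 1 (28.7% of all tested genes). Serpina1a to Serpina1e, Serpina3k and Serpina6 fell, Serpina10 rose, and Serpina3m and Serpina3n did not pass the test. The median log2 fold change was −1.18 over the members and −0.00 over all tested genes. Without TMM factors, on library size alone, the median of all genes moved to 0.45 and that of the members to −0.72, and no member changed direction. With that scaling 91.1% of all called genes were higher, against 51.7% with TMM factors. Leaving out single livers gave 5 lower members (without Hom replicate 3) to 8 (without Hom replicate 1), and leaving out both replicate 1 livers gave 8 lower members and 1 higher member.

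**Figure D1:**
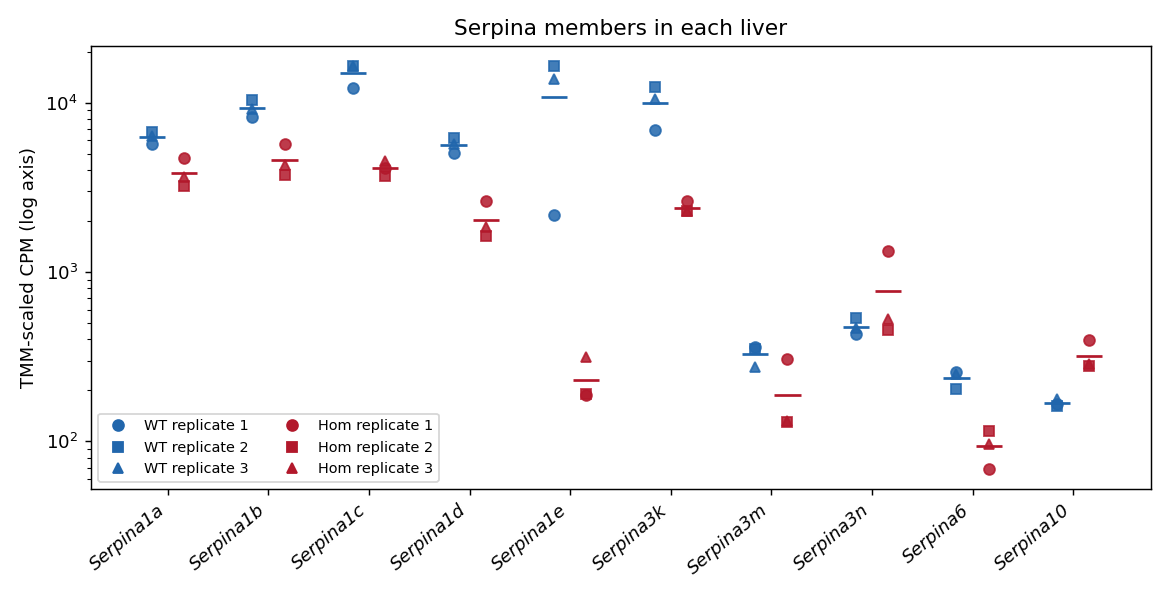
TMM-scaled CPM of each of the 10 Serpina genes on a log axis, with 1 point per liver (WT blue, Hom red; circle, square and triangle for replicates 1, 2 and 3) and a line at each group mean. The groups do not overlap for 8 genes, overlap for Serpina3m and Serpina3n, and are farthest apart for Serpina1e, whose WT replicate 1 lies far below the other WT livers.

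Serpina1e (NCBI Gene 20704), 1 of the 5 alpha-1-antitrypsin copies, showed the largest fall of the 10 genes. It was at 2163, 16326 and 13720 CPM in WT replicates 1, 2 and 3 and at 186, 191 and 313 CPM in Hom replicates 1, 2 and 3. WT replicate 1 was far below the other WT livers, yet even this liver was above all 3 Hom livers. The Hom mean was 2.14% of the WT mean, or −5.54 on the log2 scale (SE 0.80, adjusted p = 0.00244, edgeR quasi-likelihood test). Without WT replicate 1 the log2 fold change was −6.03, and without both replicate 1 livers it was −5.89. Ranked by TPM, a level corrected for gene length, Serpina1e held places 53, 6 and 11 among all genes in WT livers and places 449, 419 and 257 in Hom livers.

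Serpina1c (NCBI Gene 20702), the copy with the highest mean TPM in WT livers, was at 12123, 16416 and 16331 CPM in WT and at 4115, 3696 and 4532 CPM in Hom livers. All Hom livers were below all WT livers, and the spread within Hom was small beside the gap. The log2 fold change was −1.86 (SE 0.21, adjusted p = 0.00113, edgeR quasi-likelihood test). Serpina1d (NCBI Gene 20703), which shares its codon 15 with Serpina1c, was at 5043, 6181 and 5695 CPM in WT and at 2609, 1627 and 1852 CPM in Hom livers. The groups did not overlap, and Hom replicate 1 was the highest of its group. Serpina1d fell by 1.47 on the log2 scale (SE 0.22, adjusted p = 0.00303, edgeR quasi-likelihood test).

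Serpina1b and Serpina1a had the smallest fold changes of the copies. Serpina1b (NCBI Gene 20701) was at 8183, 10320 and 9207 CPM in WT and at 5719, 3748 and 4264 CPM in Hom livers, with no overlap. Its log2 fold change was −1.01 (SE 0.22, adjusted p = 0.0113, edgeR quasi-likelihood test), and without Hom replicate 3 it was −0.97 with an adjusted p of 0.0567. Serpina1a (NCBI Gene 20700) was at 5687, 6726 and 6340 CPM in WT and at 4729, 3214 and 3624 CPM in Hom livers. The Hom livers were again all lower, but Hom replicate 1 came close to WT replicate 1. The log2 fold change of Serpina1a was −0.70 (SE 0.20, adjusted p = 0.0306, edgeR quasi-likelihood test). This call was lost without WT replicate 2 (−0.65, adjusted p = 0.0912), WT replicate 3 (−0.69, 0.0763), Hom replicate 2 (−0.58, 0.103) or Hom replicate 3 (−0.66, 0.114), with the replicate number as a block (−0.71, 0.0703) and on library size alone (−0.25, 0.217).

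Added together, the 5 copies do not depend on how reads were divided among them. The Serpina1 sum was at 33199, 55968 and 51293 CPM in WT and at 17359, 12476 and 14585 CPM in Hom livers. No Hom liver reached the lowest WT liver, WT replicate 1. The sum was 31.6% of the WT mean in Hom livers, or −1.66 on the log2 scale (SE 0.28, adjusted p = 0.00464, edgeR quasi-likelihood test). Leaving out 1 liver at a time gave values from −1.86 to −1.52.

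**Figure D2:**
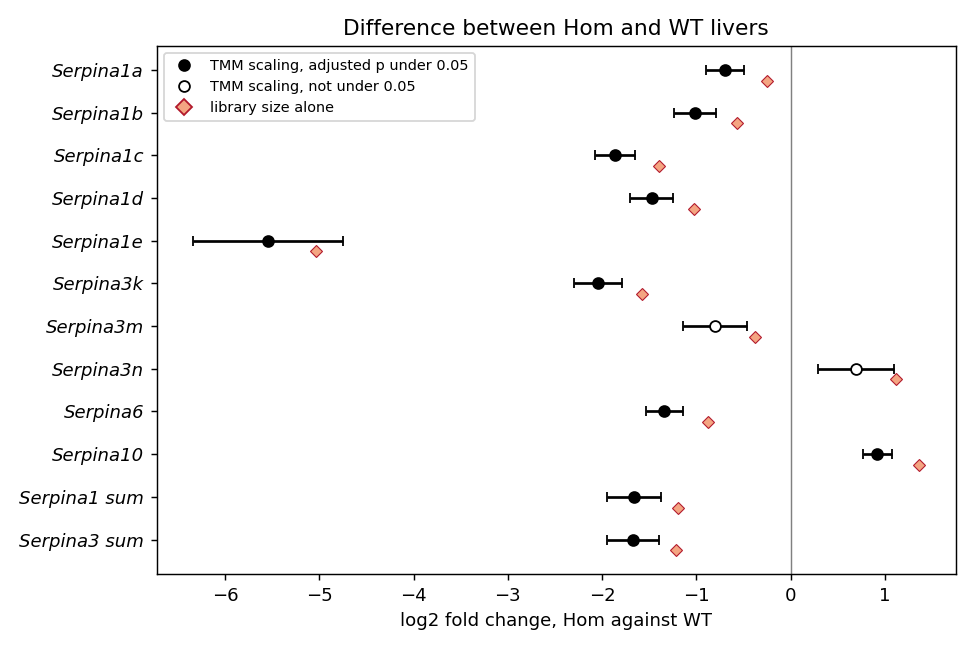
Log2 fold change of each member and of the Serpina1 and Serpina3 sums in Hom against WT livers, with bars of 1 standard error (circles, TMM factors; filled where the adjusted p was under 0.05; diamonds, library size alone). Values run from −5.54 for Serpina1e to 0.92 for Serpina10, and scaling by library size alone moves every point to the right and none across 0.

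The makeup of the Serpina1 counts was compared as shares within each liver, which do not depend on scaling. Serpina1e made up 6.52%, 29.2% and 26.7% of the Serpina1 counts in WT livers and 1.07%, 1.53% and 2.14% in Hom livers. Serpina1a made up 17.1%, 12.02% and 12.4% in WT and 27.2%, 25.8% and 24.8% in Hom livers. Serpina1b made up 24.6%, 18.4% and 18.0% in WT and 32.9%, 30.04% and 29.2% in Hom livers. For these 3 genes the groups did not overlap, with an exact two-sided permutation p of 0.1, the smallest that 3 mice against 3 allow (0.167 adjusted over the 5 genes by Benjamini-Hochberg). The share of Serpina1c was 32.6% ± 3.65 in WT and 28.1% ± 3.90 in Hom livers (SD, n = 3, exact permutation p = 0.3), and that of Serpina1d was 12.4% ± 2.38 and 13.6% ± 1.26 (SD, n = 3, exact permutation p = 0.6). For both genes the groups overlapped. The 5 shares of a liver add up to the whole, so the smaller Serpina1e share in Hom livers made the other shares larger. A share that overlaps is thus not an unchanged level: Serpina1c itself had a log2 fold change of −1.86. The mean difference in the share of Serpina1e was −19.2 percentage points, and leaving out single livers gave −26.4 to −15.0.

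**Figure D3:**
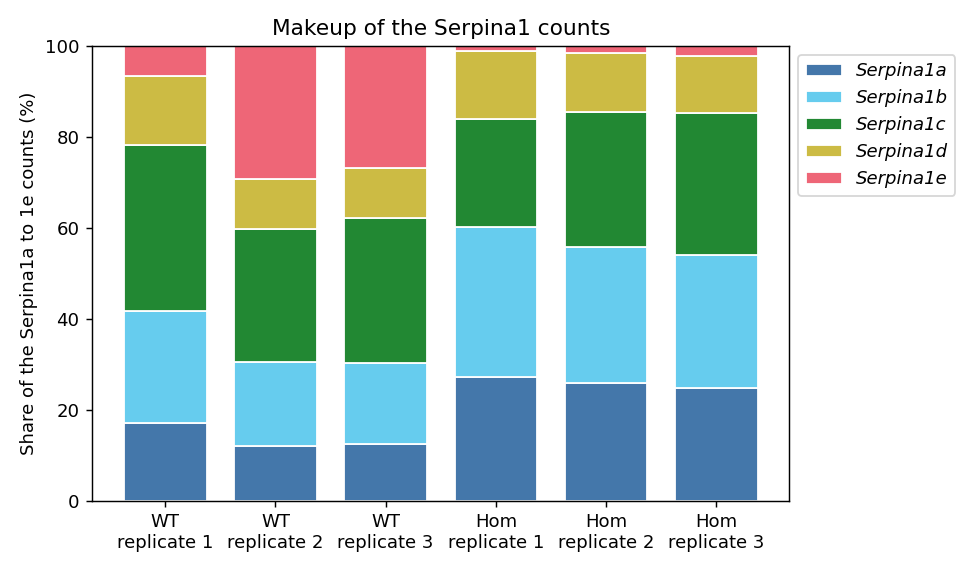
Share of each of the 5 Serpina1 genes in the summed Serpina1 counts of each liver, in percent, with 1 bar per liver. The Serpina1e segment is 6.52% to 29.2% in WT and 1.07% to 2.14% in Hom livers, while the Serpina1a and Serpina1b segments are wider in every Hom liver than in any WT liver.

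Of the 3 Serpina3 genes, 1 passed the test. Serpina3k (NCBI Gene 20714), an abundant inhibitor also known as kallikrein-binding protein, was at 6839, 12281 and 10511 CPM in WT and at 2622, 2287 and 2280 CPM in Hom livers. The Hom livers were close together and all below WT replicate 1, the lowest WT liver. The log2 fold change was −2.04 (SE 0.25, adjusted p = 0.00153, edgeR quasi-likelihood test).

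Serpina3m (NCBI Gene 20717) was at 360, 351 and 276 CPM in WT and at 304, 130 and 132 CPM in Hom livers. Hom replicate 1 was above WT replicate 3, so the groups overlapped, and the difference of −0.80 on the log2 scale (SE 0.34) did not pass the test (adjusted p = 0.0992, edgeR quasi-likelihood test). Without Hom replicate 1 the value was −1.33 with an adjusted p of 0.00219, with the replicate block it was −0.91 with an adjusted p of 0.0420, and DESeq2 gave −0.80 with an adjusted p of 0.0278.

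Serpina3n (NCBI Gene 20716), an acute phase protein that inhibits granzyme B and neutrophil elastase, was at 428, 534 and 464 CPM in WT and at 1329, 453 and 525 CPM in Hom livers. Only Hom replicate 1 was above the WT range, and the other Hom livers were within it. The log2 fold change was 0.69 (SE 0.40, adjusted p = 0.203, edgeR quasi-likelihood test). It was 0.04 without Hom replicate 1 and −0.02 without both replicate 1 livers, and on library size alone it was 1.12 with an adjusted p of 0.0319. The sum of the 3 Serpina3 genes, most of which is Serpina3k, had a value of −1.67 on the log2 scale (SE 0.28, adjusted p = 0.00423, edgeR quasi-likelihood test).

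Serpina6 (NCBI Gene 12401), the corticosteroid carrier, was at 258, 203 and 248 CPM in WT and at 68.9, 115 and 96.4 CPM in Hom livers. All Hom livers were below all WT livers, and Hom replicate 1 was the lowest. The Hom mean was 39.5% of the WT mean, or −1.34 on the log2 scale (SE 0.20, adjusted p = 0.00272, edgeR quasi-likelihood test).

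Serpina10 (NCBI Gene 217847), the inhibitor that uses protein Z as a cofactor, was the member that rose. It was at 165, 161 and 179 CPM in WT and at 394, 277 and 285 CPM in Hom livers. Every Hom liver was above every WT liver, and Hom replicate 1 was the highest. The Hom mean was 1.90 times the WT mean, or 0.92 on the log2 scale (SE 0.15, adjusted p = 0.00429, edgeR quasi-likelihood test), and without Hom replicate 1 it was 0.74.

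Ratios to the Serpina1 sum compare members within a liver. The log2 ratio of Serpina10 was −7.65, −8.44 and −8.17 in WT and −5.46, −5.49 and −5.68 in Hom livers, a difference of 2.54. Serpina3n had ratios of −6.28, −6.71 and −6.79 in WT and of −3.71, −4.78 and −4.80 in Hom livers, a difference of 2.16. Relative to the Serpina1 copies, both genes were thus higher in each Hom liver than in any WT liver, Hom replicates 2 and 3 included. The difference for Serpina3k was −0.37, also without overlap (exact permutation p = 0.1 for each of these 3 genes, 0.167 adjusted over 5 ratios). It was 0.73 for Serpina3m (exact permutation p = 0.3) and 0.28 for Serpina6 (exact permutation p = 0.7), where the groups overlapped. Leaving out single livers gave 0.44 (without Hom replicate 1) to 1.03 (without WT replicate 1) for Serpina3m and −0.0073 (without Hom replicate 2) to 0.60 (without Hom replicate 1) for Serpina6.

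Levels can be ordered within a group by TPM. The TPM values are not compared between groups here, and for Serpina1e only its ranks were set side by side. In WT livers the mean TPM was 15497 for Serpina1c, 11072 for Serpina1e, 9610 for Serpina1b, 8707 for Serpina3k, 5798 for Serpina1d and 5349 for Serpina1a. The other 4 genes were far lower, at 334 for Serpina3n, 310 for Serpina3m, 220 for Serpina6 and 155 for Serpina10. Neighbours in this order overlapped over the livers except Serpina3k with Serpina1d, Serpina1a with Serpina3n and Serpina6 with Serpina10. In Hom livers the mean TPM was 7295 for Serpina1b, 6624 for Serpina1c, 5050 for Serpina1a, 3302 for Serpina3k and 3189 for Serpina1d. Below these came 810 for Serpina3n, 449 for Serpina10, 386 for Serpina1e, 263 for Serpina3m and 134 for Serpina6. In this order 4 pairs of neighbours overlapped: Serpina1b with Serpina1c, Serpina3k with Serpina1d, Serpina10 with Serpina1e and Serpina1e with Serpina3m.

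Most members are products of hepatocytes, and markers of liver cell types moved between the groups too. For each list count here and below, the shares over all tested genes were 20.1% lower and 21.5% higher. Of 19 tested hepatocyte markers, 13 were lower and none was higher in Hom livers (median log2 fold change −0.78), and their summed level was 174651 to 208722 CPM in WT and 83351 to 111921 CPM in Hom livers. Without Hom replicate 3, 7 of the 19 were lower. Of 12 cholangiocyte markers 10 were higher (median 2.90, summed level 76.3 to 106 CPM in WT and 701 to 937 CPM in Hom livers), and of 12 stellate cell markers 7 were higher and 1 was lower (median 1.51, 359 to 421 and 764 to 840 CPM). Of 10 endothelial markers 6 were lower (median −0.58, 242 to 329 and 179.8 to 180.04 CPM), and of 12 proliferation markers 10 were higher (median 1.93, 32.9 to 46.5 and 59.0 to 95.3 CPM), or 4 without Hom replicate 2. Of 12 macrophage markers 4 were higher and 3 were lower (median 0.44, 208 to 497 and 387 to 459 CPM). The number higher was 7 without WT replicate 1 or without both replicate 1 livers and 2 without any one of WT replicate 2, WT replicate 3, Hom replicate 2 and Hom replicate 3, and the number lower was 2 without WT replicate 1 or Hom replicate 1 and 1 without Hom replicate 3. Of 7 tested lymphocyte markers 2 were higher and none was lower (median 1.00, 10.8 to 24.2 and 25.2 to 45.1 CPM for all 10 listed). The number higher was 3 without WT replicate 1 or Hom replicate 1, 0 without any other single liver and 6 without both replicate 1 livers. No marker of these lists was at 0 in all livers. In bulk tissue, fewer cells of a type and less RNA per cell cannot be told apart. The part of these markers in the serpin differences was not tested.

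Set against the summed hepatocyte markers, a measure chosen after the values were seen, the members spread to both sides. Alb was a large part of that sum, at 96359 to 123821 CPM in WT and 39606 to 55768 CPM in Hom livers. Alb fell by 1.26 on the log2 scale, more than the median marker (−0.78). These ratios therefore largely follow Alb, and ratios without Alb were not tested. The log2 ratio of the Serpina1 sum was −2.60, −1.90 and −1.77 in WT and −2.69, −2.74 and −2.72 in Hom livers, so that WT replicate 1 was close to the Hom livers and the mean difference was −0.63. The difference was −4.13 for Serpina1e, −0.99 for Serpina3k, −0.84 for Serpina1c and −0.49 for Serpina1d, with Hom below WT in every liver. Serpina1b (−0.02), Serpina6 (−0.35) and Serpina3m (0.10) overlapped between the groups on this scale. For Serpina3m and Serpina6 the difference leaned on Hom replicate 1. The log2 ratios in Hom replicates 1, 2 and 3 were −8.52, −9.32 and −9.51 for Serpina3m and −10.7, −9.50 and −9.96 for Serpina6. On this scale, set largely by Alb, Serpina1a (0.30), Serpina3n (1.54) and Serpina10 (1.92) were above WT in all 3 Hom livers.

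Serpina1e is known as a gene with higher expression in male than in female mouse liver, under the control of growth hormone. Of 12 tested male-biased liver genes 9 were lower and none was higher in Hom livers (median log2 fold change −4.19). Their summed level was 6366, 21659 and 20791 CPM in WT and 759, 3051 and 8440 CPM in Hom livers, with WT replicate 1 low, as it was for Serpina1e, and below Hom replicate 3. Hsd3b5, a male-biased steroid enzyme gene, was at 40.8, 223 and 224 CPM in WT livers and had no count in any Hom liver, which makes it at least 1240-fold lower against a floor of 3 counts per library. Of 5 tested female-biased genes, 2 were higher; the count was 0 without WT replicate 2, 1 without WT replicate 3 or Hom replicate 1, 3 without WT replicate 1, and 4 without both replicate 1 livers. The summed female-biased genes were highest in Hom replicate 1 and next in WT replicate 1, the WT liver with the lowest Serpina1e. The part of sex in the difference was not tested.

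The genes outside the family with the profile most like that of Serpina1e were Mup19, Car3 and Mup9. Likeness was measured over the 6 livers as the root mean square difference in log2 CPM, centred on the WT mean, among 1370 genes with a mean of at least 100 CPM. It was 0.81 for Mup19 and 0.98 for Mup9, which encode major urinary proteins and are close in sequence to other Mup genes, so that their counts are uncertain, and 0.92 for Car3, a carbonic anhydrase gene. Mup19 was at 2294, 12797 and 17731 CPM in WT and at 93.5, 185 and 974 CPM in Hom livers, with WT replicate 1 the lowest of its group.

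**Figure D4:**
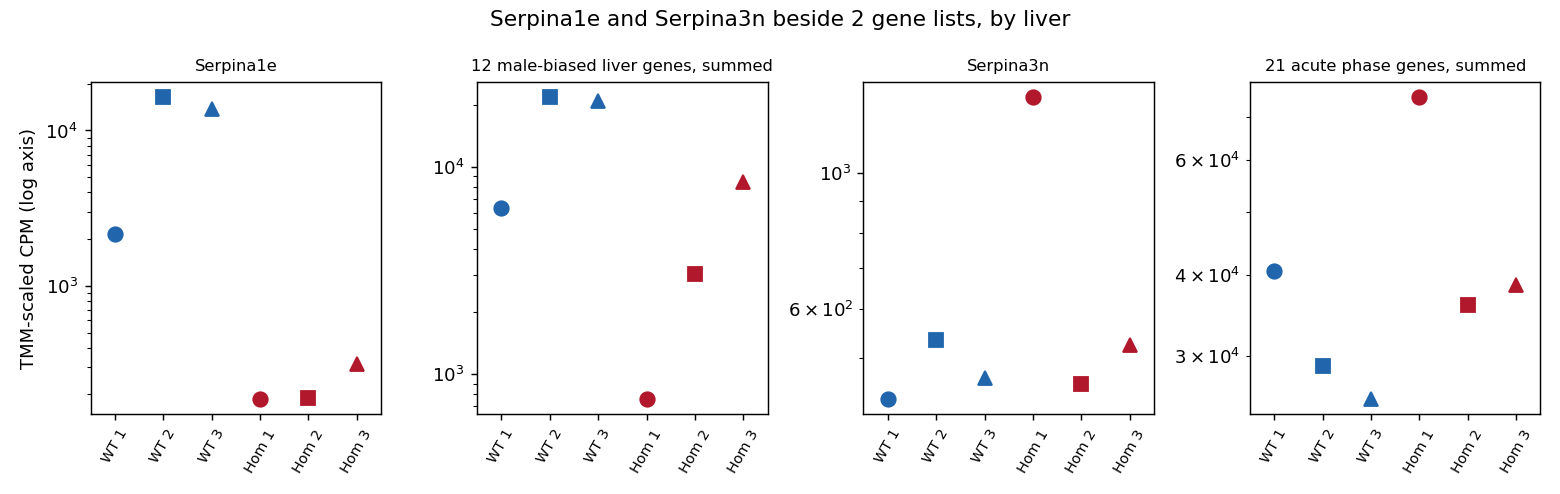
TMM-scaled CPM on log axes for Serpina1e, the summed male-biased liver genes, Serpina3n and the summed acute phase genes, with 1 point per liver (WT blue, Hom red). Serpina1e and the male-biased sum are both low in WT replicate 1 within the WT group, and Serpina3n and the acute phase sum are both highest in Hom replicate 1.

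Serpina3n and the Serpina1 genes are counted among acute phase proteins, which the liver releases in inflammation. Of 21 other acute phase genes 5 were higher and 2 were lower in Hom livers (median 1.13), beside 21.5% higher and 20.1% lower over all tested genes. The summed level of the 21 genes was 40553, 28995 and 25797 CPM in WT and 74907, 35949 and 38681 CPM in Hom livers. As for Serpina3n, Hom replicate 1 was the highest. The number that was higher changed to 9 without WT replicate 1, to 3 without WT replicate 2 or Hom replicate 1, and to 13 without both replicate 1 livers. The number that was lower was 1 without WT replicate 1 or 3, and 0 without Hom replicate 2 or 3. None of 7 tested neutrophil markers passed the test, while 3 were higher without WT replicate 1. The part of inflammation in the values of Serpina3n was not tested.

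Among 20 transcription factors and receptors known to act upstream of these genes, 2 rose and 6 fell in Hom livers (median −0.37). Over all tested genes 21.5% rose and 20.1% fell. Ghr, the growth hormone receptor, fell by 1.42 on the log2 scale (SE 0.14), and Stat5b, which carries its signal, fell by 0.89 (SE 0.12). Il6ra, a chain of the interleukin-6 receptor, fell by 1.24 (SE 0.16), whereas Osmr, the oncostatin M receptor, rose by 2.13 (SE 0.15). These 4 genes passed the edgeR quasi-likelihood test at an adjusted p of 0.00202 or less, and for each the groups did not overlap.

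Serpina6 carries glucocorticoids, and 11 genes of glucocorticoid handling were tested beside it. Of these 5 were lower and none was higher (median −0.56), and 3 were lower without Hom replicate 3. Hsd11b1, which regenerates active corticosterone within cells, fell by 1.87 (SE 0.11) on the log2 scale, and the glucocorticoid-induced genes Tsc22d3 and Dusp1 fell by 2.05 (SE 0.26) and 1.51 (SE 0.19). Fkbp5 (−0.26, adjusted p = 0.551) and Per1 (0.07, adjusted p = 0.886), which glucocorticoids also induce and which were picked after their values were seen, did not pass the edgeR quasi-likelihood test. The hormone itself was not measured in these data.

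Among 10 tested genes of a list of proteases and cofactors, not all of them targets of the members, 6 were lower and 2 were higher (median −0.49). The higher ones were Mmp12, macrophage elastase, with a log2 fold change of 4.28 (SE 0.33) from levels of 0.279 to 0.385 CPM in WT livers, and St14, matriptase, with 2.66 (SE 0.37). F10, the factor X gene and a target of the Serpina10 protein, fell by 0.60 (SE 0.10), and Klkb1, plasma prekallikrein, fell by 0.69 (SE 0.11). F11, factor XI, the other target, had a value of −0.87 on the log2 scale (SE 0.26), and this call was lost without WT replicate 2, WT replicate 3, Hom replicate 2 or Hom replicate 3 (adjusted p from 0.0737 to 0.102, edgeR quasi-likelihood test). The F11 call was also lost with the replicate block (−0.82, adjusted p = 0.0783) and on library size alone (−0.40, adjusted p = 0.133, same test). The number of lower genes in this list was 3 without any one of WT replicate 2, WT replicate 3 and Hom replicate 2, and 2 without Hom replicate 3. Serpina10 thus rose where both factors had negative values. Of 20 genes of export from the endoplasmic reticulum and quality control, the route by which serpins are secreted, 12 were lower and none was higher (median −0.40). Without WT replicate 2 it was 7, and without WT replicate 3, Hom replicate 2 or Hom replicate 3 it was 3.

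Of the other clade A serpin genes, 8 were tested, and 3 were lower and none was higher (median −0.55). Agt, the angiotensinogen gene, fell by 0.69 on the log2 scale (SE 0.17), but the call was lost without WT replicate 2 (adjusted p = 0.0630), Hom replicate 2 (0.0604) or Hom replicate 3 (0.0724, edgeR quasi-likelihood test). On library size alone the Agt call was lost too (−0.25, adjusted p = 0.195, same test). Serpina11, which lies beside Serpina1e, fell by 0.58 (SE 0.09), and Serpina9, the next gene along, fell by 2.84 (SE 0.61) from low levels of 1.28 to 3.75 CPM in WT livers. Serpina12, the adipokine vaspin, had a log2 fold change of −1.15 (adjusted p = 0.241) and passed the test without WT replicate 1 (−1.68, adjusted p = 0.00394, edgeR quasi-likelihood test). Serpina3f (−0.53), Serpina3g (−0.03), Serpina3i (0.18) and Serpina7 (0.00), the thyroxine-binding globulin gene, overlapped between groups and did not pass the test.

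Of 15 tested serpins of other clades, 5 were higher and 3 were lower (median 0.34), and 1 was lower without any one of WT replicate 2, WT replicate 3, Hom replicate 2 and Hom replicate 3. On the log2 scale the intracellular inhibitor genes Serpinb6b (3.66), Serpinb6a (2.41) and Serpinb9 (1.28) and the collagen chaperone gene Serpinh1 (1.46) rose. Serpinf1, which encodes pigment epithelium-derived factor, fell by 0.74 (SE 0.11).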

How the data were processed

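RNA from 6 livers (3 WT, 3 Hom) was sequenced on DNBSEQ. The submitters' processing notes name HISAT2 2.0.4, Bowtie2 2.2.5, RSEM 1.2.12 and mm9, with no role or order. The annotation and strand setting are not given in the sources used here. The authors deposited estimated counts, FPKM and TPM per gene and liver. The authors' FPKM values gave only the gene length they imply, and the authors' TPM values ordered genes within a group. Deposited group means were not used.

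Rounded counts (65.9% were whole as deposited) entered edgeR 4.0.16 (R 4.3.3) with filterByExpr, TMM factors and the two-sided quasi-likelihood test with Benjamini-Hochberg adjustment over 13805 genes. Calls had an adjusted p under 0.05 with no minimum fold. The SE of a log2 fold change was computed from its F statistic. Shares and ratios were tested with the exact permutation test over livers. The edgeR fit was tested on simulated data with a small set of genes changed, in both directions. The simulation held no shift in library composition like that between WT and Hom livers, so it cannot test the scaling. No 2 libraries of a group were alike within sampling noise (chi-square of at least 23.9 per degree of freedom).

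The members and gene lists were chosen with earlier results of these data known. Named genes were Nek7, the members, the other tested clade A serpins, the Y-linked genes, in each list the called genes with the largest and smallest log2 fold change among those at 1 CPM or more, up to 4 called genes with the smallest adjusted p in the targeted lists, and the 3 genes most like Serpina1e; not all are printed. Alternatives were DESeq2 1.42.0, library size alone, upper-quartile factors, no filter or a filter of 10 counts in each liver, a block for the replicate number, a loess correction for gene length, a minimum fold, TPM for shares and each liver left out; leaving out both replicate 1 livers was added after seeing the data. WT and Hom livers share replicate numbers but are different mice.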

Additional observations from a re-analysis of the deposited data

How the results depend on the processing

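Of 168 values for members and sums under the alternatives, 155 kept their direction and their side of the threshold. Serpina1a was no longer called on library size alone (−0.25) or with the replicate block (−0.71), and lay between −0.87 and −0.58 with 1 liver left out. Serpina1b lay between −1.21 and −0.89 with 1 liver left out. Serpina3m was called with DESeq2 (−0.80), with the replicate block (−0.91) and without both replicate 1 livers (−1.25), and lay between −1.33 and −0.59 with 1 liver left out. Serpina3n was called on library size alone (1.12) and turned to −0.018 without both replicate 1 livers. The members called higher were 2 on library size alone and 0 with a log2 fold change of at least 1. The cause of these changes was not tested.

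Over all genes, 642 were lower and 6574 higher on library size alone, 575 and 1825 with a log2 fold change of at least 1, and 1767 to 2750 were lower with 1 liver left out. The replicate numbers did not pair the livers: deviations of same-numbered livers correlated at −0.10, −0.05 and −0.05 over 12865 genes. On library size alone the lower genes were 6 of 19 hepatocyte markers, 2 of 20 export and quality control genes, 1 of 8 other clade A serpins and 0 of 10 genes of the protease list. The block gave 2214 lower and 2383 higher genes.

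Genes outside the members changed sign too. Of those named below, Ergic3 was called in the main fit and the others were not. Serpina3g turned positive on library size alone (0.43), with upper-quartile factors (0.056), at least 10 counts (0.012), the length correction (0.013) and without both replicate 1 livers (0.41), and lay between −0.31 and 0.19 with 1 liver left out. Serpina7 turned negative with no filter (−0.0032), the block (−0.12) and the length correction (−0.0053), and lay between −0.66 and 0.40 with 1 liver left out. Serpina3i lay between −0.073 and 0.49 with 1 liver left out, and Serpina3f was 0.22 without both replicate 1 livers. Ergic3, called lower in the main fit (−0.27, adjusted p = 0.0265, edgeR quasi-likelihood test), was 0.19 on library size alone. Ddx3y lay between −0.96 and 0.064 with 1 liver left out and was 0.051 without both replicate 1 livers. Eif2s3y was 0.035 on library size alone, 0.11 without Hom replicate 1 and 0.093 without both.

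Depth limits genes of few counts; no member had under 1477 counts in a liver. With 3 mice a group, exact tests cannot go below p = 0.1.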
